A study of Bos taurus with 15 samples.

Results

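The 10 genes described here were the insulin-like growth factors IGF1 and IGF2, the receptors IGF1R, IGF2R and INSR, and the binding proteins IGFBP2 to IGFBP6. Their probes were taken by name, through the symbol, accession, gene number or description that the array files give a probe, and by no measured value. The list of genes itself was chosen with earlier results of these data known. The 10 genes held 15 of the 21475 probes on the array. Each of them had at least 1 probe among the 17411 probes tested, which stood for 12810 genes. RNA came from the testis of 15 cattle, collected at slaughter and measured on single-colour Agilent oligonucleotide arrays, 1 animal per array. The 7 control animals received no treatment, and the 8 other animals received prednisolone by mouth, 30 mg per head each day for 35 days. Prednisolone is a synthetic glucocorticoid, a steroid that acts through the glucocorticoid receptor. The age and breed of the animals are not given in the sources used here, and whole testis was measured, so a level sums over all of its cell types.

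IGF1 and IGF2 are small secreted hormones related to insulin. Both signal mainly through IGF1R, a receptor tyrosine kinase, and through INSR, the insulin receptor, while IGF2R binds IGF2 at the cell surface and carries it to lysosomes. The binding proteins hold the growth factors outside the cell and set how much of them reaches a receptor. In the testis these growth factors are known to support Sertoli cells, which nurse the germ cells, and Leydig cells, which make testosterone.

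Every value below is a log2 level relative to the 75th percentile of its own array, so 1 unit is a doubling, and levels of different genes cannot be set against each other because each probe binds with its own strength. The arrays carried testis RNA by their markers: INSL3 and CYP17A1 of Leydig cells, AMH of Sertoli cells and PRM1 of spermatids cleared background on all 7 control and all 8 prednisolone arrays. One array stood apart from all others. On the array of prednisolone 30, 36.4% of probes were well above background, against 82.2% to 89.9% on the other 14 arrays, and it correlated with them at 0.705 to 0.736, against 0.962 to 0.993 among themselves. Its scanner file did not match the deposited column of the same animal (gene-centred correlation 0.0124, against 0.846 to 0.962 for the others). The 75th percentile of its processed signal was 49.4, against 1220 to 2780 on the other arrays. Its mean over the epididymis marker list, of which 2 of 9 genes were measured, was 4.26, against -0.93 to 0.35 on the other arrays. The blood and endothelium means were also high there (1.43 and 1.37), and the smooth muscle and macrophage means low (-1.05 and -1.13). Not every gene followed its list mean on that array. VWF and KDR of the endothelium list read below all other arrays, and CDH5 lay inside their range. ACTA2 and SMTN (smooth muscle), CD14 and CD68 (macrophage) and HBB (blood) also lay inside it. None of the 8 endothelium genes was well above background there, and neither were HBB and CES5A (epididymis). ADIPOQ, well above background on 0 arrays, read -4.38 there, against -10.04 to -8.06 elsewhere. Whether these list means reflect more than the scaling of a dim array was not tested. The probes read for IGF1, INSR, IGFBP2, IGFBP4 and IGFBP5 were not well above background there, whereas those of all 10 genes were on the other 14 arrays. The array of control 17 stood apart in another way, described below, and results are therefore given with and without these 2 animals. Whether fewer cells of a type or less RNA per cell lies behind a low level cannot be told apart in whole tissue.

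None of the 10 genes passed the test between prednisolone and control, and neither did any of the 12810 genes tested (0%; limma, Benjamini-Hochberg adjustment over all tested probes, threshold 0.05). At an unadjusted p under 0.05 stood 1 of the 10 genes, IGF2R, against 339 of all tested genes (2.65%). The differences of the 10 genes had a median of -0.29, with 6 lower and 4 higher in prednisolone, against a median of 0.00069 and 49.9% lower over all tested genes. Without control 17 and prednisolone 30 the split of the 10 genes was 5 to 5 and their median -0.0005, while 48.7% of all tested genes were lower and 660 (5.15%) had an unadjusted p under 0.05. Leaving out prednisolone 30 alone gave 8 lower and 2 higher, with 0 of the 10 genes and 4.28% of all tested genes at an unadjusted p under 0.05, and leaving out control 17 alone gave 6 and 4, with 0 and 2.35%. The number called stayed at 0 for the 10 genes each time. Quantile scaling of all 15 arrays put 8 of the 10 genes lower and 60.1% of all tested genes, median scaling 7 and 59.2%, and in the deposited table the values were 8 and 51.1%. The control and prednisolone ranges overlapped for every one of the 10 genes. The share of all tested genes with overlapping ranges was not taken, so the overlap is not read as particular to these genes.

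**Figure D1:**
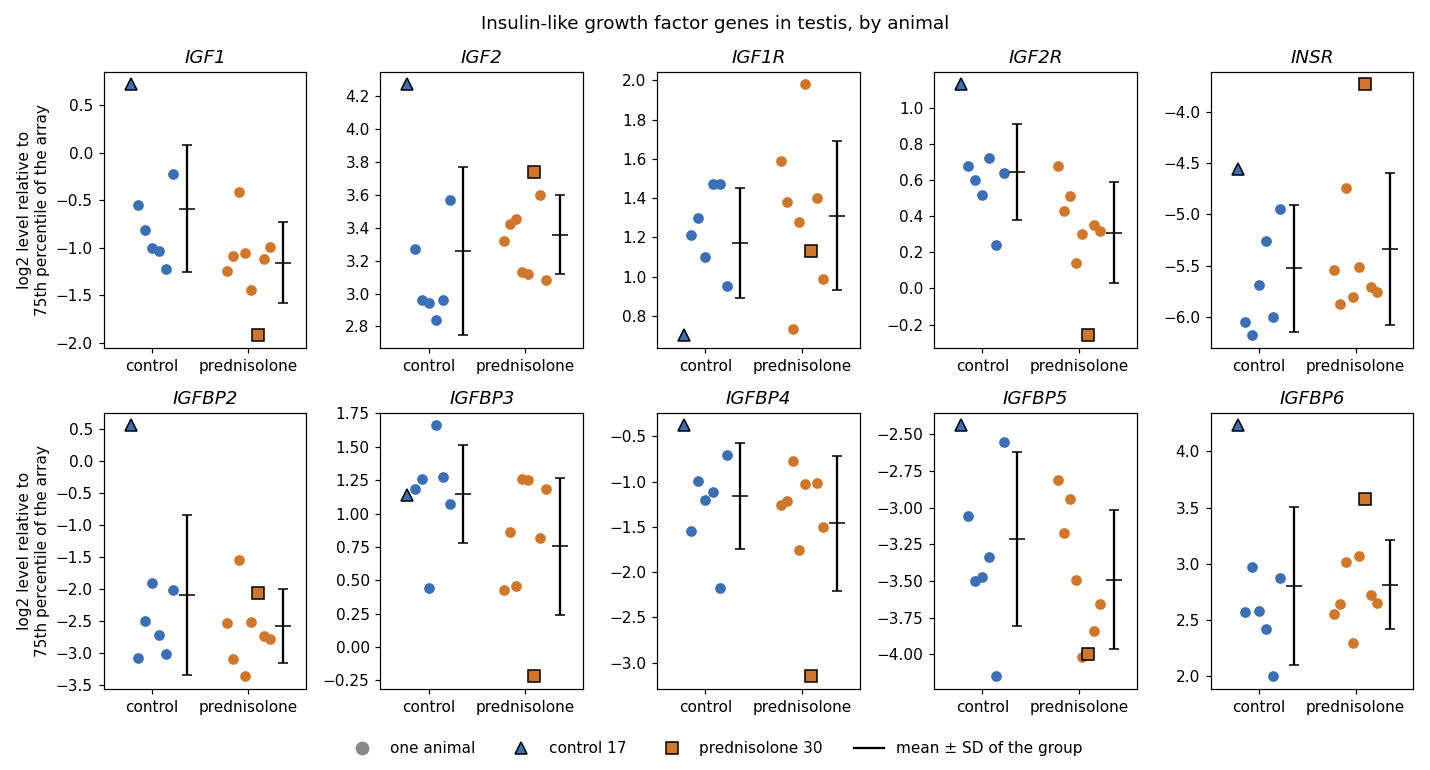
Log2 level of each of the 10 genes relative to the 75th percentile of the array, one point per animal for 7 control and 8 prednisolone animals, with the mean and SD of each group. Control 17 (triangle) is the highest control for 8 of the 10 genes, by the widest margin for IGFBP2, and prednisolone 30 (square) is the lowest of all animals for IGF1, IGF2R, IGFBP3 and IGFBP4.

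Among the ligands, IGF1 had the largest difference of the 10 genes over all 15 arrays, and that of IGF2 was small. Without control 17, or without both animals, the difference of IGFBP3 was larger than that of IGF1, and without prednisolone 30 that of IGFBP2 was. IGF1, the main mediator of growth hormone action, ranged in the controls from -1.22 (control 23) to 0.72 (control 17), with a median of -0.81. In prednisolone it ranged from -1.92 (prednisolone 30) to -0.41 (prednisolone 27), with a median of -1.10. Of the 8 prednisolone animals, 7 lay below the control mean of -0.59 ± 0.67 (SD, n = 7), and the prednisolone mean was -1.16 ± 0.43 (SD, n = 8). The difference was -0.57 (SE 0.27, 95% interval -1.14 to 0.01, limma adjusted p = 0.885). Leaving out control 17 gave -0.35, leaving out prednisolone 30 gave -0.46, and leaving out both gave -0.24 (95% interval -0.62 to 0.14). The 9 arrays scanned on the first scan day hold both groups. Their only controls were controls 17, 18 and 23, and prednisolone 30 was also among them. The difference of IGF1 on these arrays was -0.95, with an unadjusted limma p of 0.039. In this setting 126 of all tested genes (0.98%) had an unadjusted p under 0.05, and 0 were called. No other scan day held both groups, so a scan day block takes the difference from the first scan day alone. With both animals left out such a block gave -0.29, and its only controls on that day were controls 18 and 23.

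IGF2, best known as a growth factor of fetal tissue, ranged from 2.84 to 4.27 in the controls (median 2.96) and from 3.08 to 3.74 in prednisolone (median 3.37). The highest value was again that of control 17. The means were 3.26 ± 0.51 (SD, n = 7) and 3.36 ± 0.24 (SD, n = 8), a difference of 0.10 (SE 0.21, 95% interval -0.33 to 0.53, limma adjusted p = 0.917). Without both animals it was 0.21, and within the first scan day it was -0.12. A second IGF2 probe was dim, between -5.21 and -4.55 on 14 arrays and -1.23 on prednisolone 30. Its difference of 0.46 became 0.02 without that array, and over 13 animals it did not follow the first probe (r = 0.13, permutation p = 0.686).

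The receptors gave small differences in both directions. IGF2R, which clears IGF2, ranged from 0.24 to 1.13 in the controls (median 0.64) and from -0.26 to 0.68 in prednisolone (median 0.34). Its lowest value was on prednisolone 30 and its highest on control 17, and 7 of 8 prednisolone animals lay below the control mean of 0.65. The difference was -0.34 (SE 0.16, 95% interval -0.68 to -0.0013), with an unadjusted p of 0.0492 and a limma adjusted p of 0.885. Leaving out either animal alone gave -0.26, and leaving out both gave -0.18 (95% interval -0.42 to 0.06). A scan day block with both left out, which rests on controls 18 and 23 for its controls, gave -0.046.

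IGF1R, the shared signalling receptor, ranged from 0.70 to 1.47 in the controls (median 1.21) and from 0.73 to 1.98 in prednisolone (median 1.33). Control 17 held the lowest value and prednisolone 29 the highest, and the 2 ranges overlapped. The difference was 0.14 (SE 0.18, 95% interval -0.25 to 0.53, limma adjusted p = 0.889), and 0.09 without both animals. INSR, the insulin receptor, ranged from -6.18 to -4.56 in the controls (median -5.69) and from -5.87 to -3.73 in prednisolone (median -5.63). This probe was dim, at -6.18 to -4.56 on the arrays other than prednisolone 30, though well above background on each of them. The highest INSR value was that of prednisolone 30, where the probe was not well above background. The difference was 0.19 (SE 0.33, 95% interval -0.51 to 0.89, limma adjusted p = 0.904), and it changed sign to -0.04 without prednisolone 30.

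The binding proteins differed by at most 0.48 between the group means, and their intervals all held 0. IGFBP2, a binding protein with a preference for IGF2, ranged from -3.08 to 0.55 in the controls (median -2.49) and from -3.36 to -1.54 in prednisolone (median -2.63). Control 17 alone made the control range wide, since the next control stood at -1.90. The difference of -0.48 (SE 0.45, 95% interval -1.42 to 0.46, limma adjusted p = 0.885) was -0.04 without control 17 and -0.11 without both animals. IGFBP3, the main carrier of the growth factors in blood, ranged from 0.44 to 1.66 in the controls (median 1.18) and from -0.22 to 1.26 in prednisolone (median 0.84). Control 17 lay inside the control range, at 1.14, and the low end of the prednisolone range was prednisolone 30. Its difference was -0.39 (SE 0.23, 95% interval -0.88 to 0.09, limma adjusted p = 0.885), -0.40 without control 17 and -0.26 without both.

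IGFBP4, a binding protein that is cut by the protease PAPPA, ranged from -2.18 to -0.38 in the controls (median -1.11) and from -3.15 to -0.77 in prednisolone (median -1.23). The low value was that of prednisolone 30, where the probe was not well above background, and without that array the lowest prednisolone value was -1.76. The difference was -0.30 (SE 0.33, 95% interval -0.99 to 0.39, limma adjusted p = 0.885), -0.06 without prednisolone 30 and 0.07 without both. A scan day block with both animals left out gave 0.66 with an unadjusted limma p of 0.008. That estimate rests on the first scan day, where the only controls left were control 18 (-1.55) and control 23 (-2.18, the lowest control). The block setting without both animals was added after the data were seen, and no gene was called under it. Of all tested genes, 1074 (8.38%) had an unadjusted p under 0.05 in that setting. IGFBP5, which binds extracellular matrix, ranged from -4.15 to -2.44 in the controls (median -3.34) and from -4.02 to -2.81 in prednisolone (median -3.57). Its difference was -0.27 (SE 0.26, 95% interval -0.83 to 0.28, limma adjusted p = 0.885) and -0.07 without both. IGFBP6, which binds IGF2 more tightly than IGF1, ranged from 2.004 to 4.23 in the controls (median 2.58) and from 2.30 to 3.58 in prednisolone (median 2.68). Control 17 and prednisolone 30 were the highest animals of their groups. The difference was 0.0099 (SE 0.27, 95% interval -0.57 to 0.59, limma adjusted p = 0.993), and 0.14 without both.

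**Figure D2:**
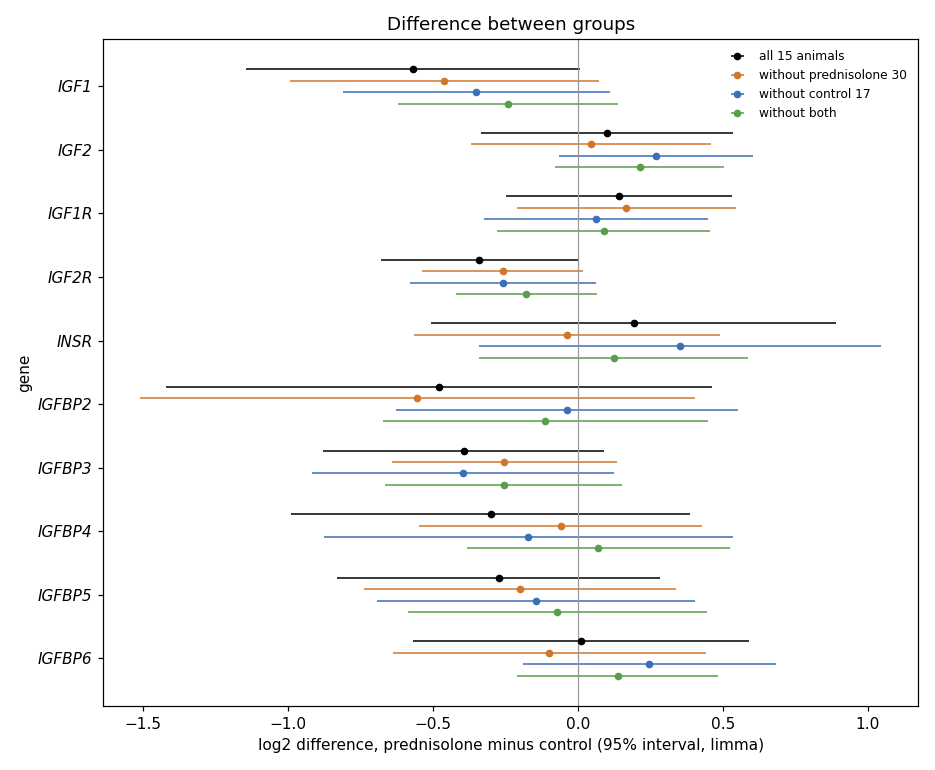
Log2 difference of prednisolone minus control for each of the 10 genes with its 95% interval from limma, over all 15 animals and with control 17 and prednisolone 30 left out. Leaving both animals out brings IGF1 from -0.57 to -0.24 and IGFBP2 from -0.48 to -0.11, and all intervals without them hold 0.

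The animal labelled control 17 carried the widest departures in these genes. Against the other 13 animals, prednisolone 30 left out, it was the highest for 8 of the 10 genes and the lowest for IGF1R, with IGFBP3 inside the range. Over all tested genes it was the highest for 19.5% and the lowest for 26.8%. Relative to the mean of the other 6 controls, IGFBP2 was 8.49 times as high in control 17, IGFBP6 3.15 times, IGF1 2.89 times, IGF2 2.27 times and INSR 2.18 times. IGFBP4, IGFBP5 and IGF2R were between 1.48 and 1.88 times as high, and IGF1R was at 0.683 times. Marker lists of other cell types moved with the same animal. Its mean over 12 measured genes of matrix and fibroblasts was 1.45 above the gene means, against -0.27 to 0.34 in the other controls and -0.56 to 0.25 in prednisolone without animal 30. The smooth muscle mean was 1.33, the macrophage mean 0.85 and the endothelium mean 0.81, each above all of the other 13 animals, whose highest values were 0.47, 0.38 and 0.13. Not every gene followed its list mean in control 17. CD14 and AIF1 of the macrophage list and COL6A2 of the matrix list were below all of the other 13 animals. MRC1 (macrophage), VWF and ESAM (endothelium), SMTN (smooth muscle), and COL6A1 and LUM (matrix) lay inside their range. The remaining measured genes of these lists were above all of the other 13. The spermatid mean was -0.78, against -0.19 to 0.37 in the other 13 animals. The Sertoli mean of 0.41 and the Leydig mean of 0.01 lay inside the range of the other 13, which reached 0.58 and 0.64. The part of these cell types in the values of control 17 was not tested.

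Among the 13 other animals the genes varied to different degrees. The SD over animals was largest for IGFBP2, 0.52, which lay above that of 92.9% of all tested genes, followed by IGFBP5 at 0.47 (89.9%), INSR at 0.42 (85.2%) and IGFBP4 at 0.41 (83.2%). IGF2R was the steadiest, with an SD of 0.19 that exceeded that of 16.6% of tested genes, and IGF2 had 0.25 (41.5%). The median over all tested genes was 0.27. The INSR probe was dim, and the part of low signal in its spread was not tested. From the lowest to the highest of the 13 animals, IGFBP2 spanned 3.53-fold and IGF2R 1.498-fold.

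Of the 45 pairs among the 10 genes, 2 passed by Pearson's r across the 13 animals after Benjamini-Hochberg adjustment, 1 negative and 1 positive, and 3 passed by Spearman's rho, these 2 among them. IGF1 and its receptor IGF1R ran against each other, with r = -0.81 (permutation p = 0.00057, adjusted p = 0.0128) and Spearman rho = -0.90 (permutation p = 8e-05, adjusted p = 0.0036). Without the 2 animals farthest from the IGF1 median, r was -0.71. The direction was the same in the 6 controls (r = -0.79, exact permutation p = 0.0653) and in the 7 prednisolone animals (r = -0.93, exact permutation p = 0.00198), and among the 7 animals of the first scan day r was -0.75 (exact permutation p = 0.0675). In the 7 prednisolone animals the order of IGF1 was the exact reverse of the order of IGF1R (rho = -1, exact permutation p = 0.000397, the smallest that 7 animals can give). In the deposited table r was -0.72 and missed the threshold (permutation p = 0.00533, adjusted p = 0.12).

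IGFBP4 and IGFBP6 were high in the same animals, with r = 0.86 (permutation p = 0.00017, adjusted p = 0.00765) and rho = 0.80 (adjusted p = 0.0391). Without the 2 animals farthest from the IGFBP4 median, r was 0.64. It was 0.87 in the 6 controls (exact permutation p = 0.0306), 0.86 in the 7 prednisolone animals (exact permutation p = 0.0175), 0.90 within the first scan day and 0.90 in the deposited table (adjusted p = 0.0009). With all 15 animals r dropped to 0.20, since prednisolone 30 was lowest for IGFBP4 and high for IGFBP6. The third pair by rho was IGFBP2 with IGFBP4 (rho = 0.77, permutation p = 0.00327, adjusted p = 0.049), which missed the threshold by r (0.71, adjusted p = 0.0698). Its rho was 0.60 in the controls, 0.75 in prednisolone, 0.46 within the first scan day and 0.68 in the deposited table, and none of these passed after adjustment. The points of all these pairs share the scaling of their array. How often pairs of other tested genes pass was not taken, so the counts of pairs are not read as particular to these genes.

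**Figure D3:**
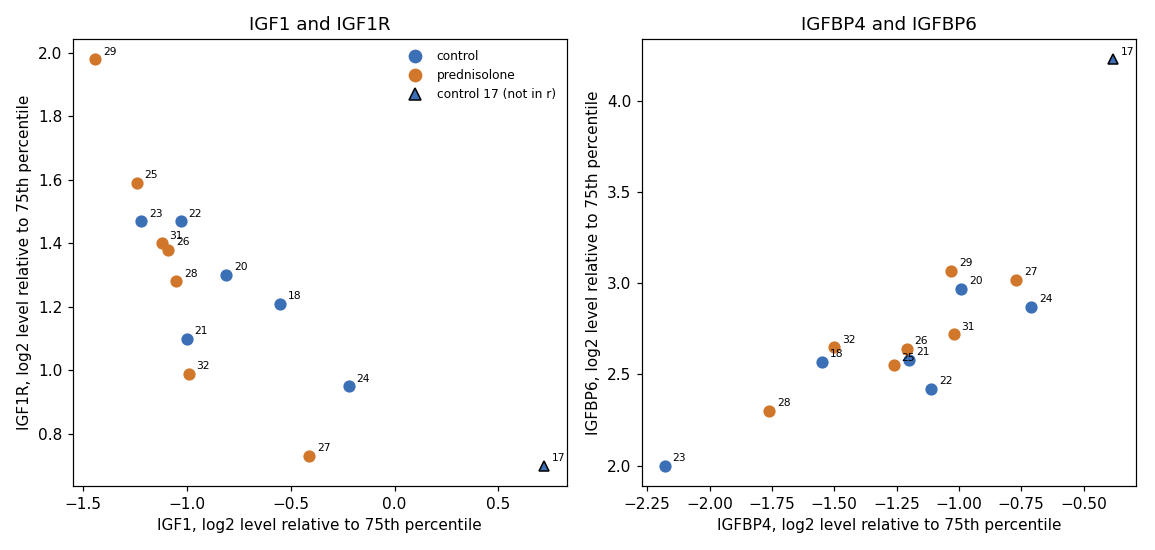
Levels of IGF1 against IGF1R and of IGFBP4 against IGFBP6, one point per animal, both axes in log2 relative to the 75th percentile of the array, with control 17 drawn as a triangle and left out of r. IGF1R is lower where IGF1 is higher (r = -0.81 over 13 animals), and IGFBP6 is higher where IGFBP4 is higher (r = 0.86).

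Several of the genes also went with the level of marker genes. Of 40 pairs of a gene with the mean of a Leydig, Sertoli, spermatid or matrix and fibroblast list, 8 passed by Pearson's r after adjustment and 0 by Spearman's rho (smallest adjusted p over rho 0.125). At an unadjusted p under 0.05 by rho stood 12 of the 40 pairs, 7 of these 8 among them. The share of all tested genes that pass with these list means was not taken, so the counts are not read as particular to these genes. IGF2R was lower where the spermatid mean was higher (r = -0.83, permutation p = 0.0009, adjusted p = 0.028; -0.72 without the 2 farthest animals; rho = -0.72, permutation p = 0.0074). The r of this pair was -0.88 in the controls, -0.80 in prednisolone, -0.78 within the first scan day and -0.64 in the deposited table. In the 6 controls rho was -0.49 (exact permutation p = 0.356), and r turned to 0.41 on the 4 animals left without the 2 farthest. In the 7 prednisolone animals rho was -0.89, and r was -0.86 without the 2 farthest. With the Sertoli mean went IGFBP4 (r = 0.77), IGFBP2 (0.76), INSR (0.76) and IGFBP6 (0.70). Without the 2 farthest animals IGFBP2 kept an r of 0.71, IGFBP6 0.64 and IGFBP4 0.58, while INSR dropped to 0.42. IGFBP4 and IGFBP5 were lower where the spermatid mean was higher (both r = -0.70). For IGFBP4 this r was -0.46 without the 2 farthest animals and -0.43 in the deposited table, and for IGFBP5 it was -0.57 and -0.13. None of the 8 relations passed in the deposited table. IGF1 followed the matrix and fibroblast mean at r = 0.71, and at 0.23 without the 2 farthest animals, control 24 and prednisolone 27, so that this relation rests on them. The part of cell content in the pairs of genes above was not tested.

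**Figure D4:**
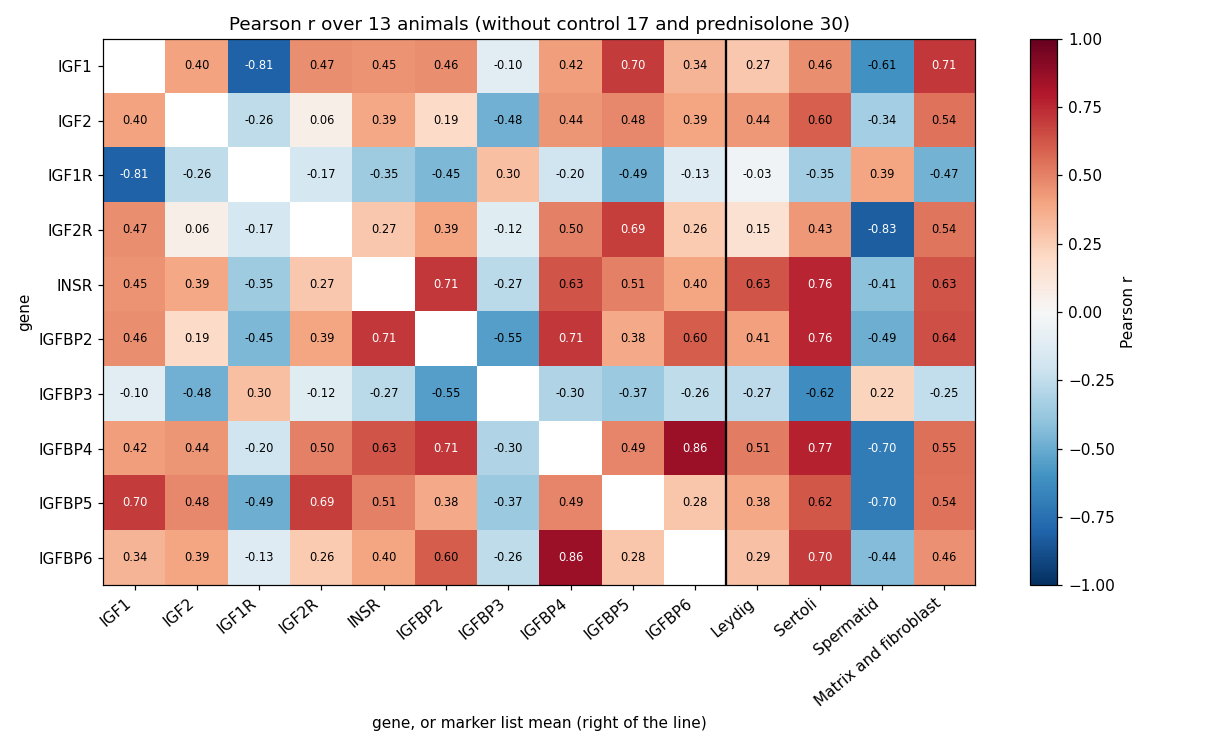
Pearson r over 13 animals, control 17 and prednisolone 30 left out, between each pair of the 10 genes and, right of the line, between each gene and the means of 4 marker lists. The strongest cells are IGFBP4 with IGFBP6 (0.86), IGF2R with the spermatid mean (-0.83) and IGF1 with IGF1R (-0.81).

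Where a gene had several probes, they did not follow each other closely. Of 6 pairs of probes for the same gene, 0 passed over the 13 animals (permutation test, smallest adjusted p 0.0846; 2 at an unadjusted p under 0.05). The pair for IGF1R gave r = -0.25, and its second probe cleared background on 4 control and 5 prednisolone arrays, too few to be tested. The 2 probes of IGFBP5 gave r = 0.61, and the 3 INSR probes, of which 2 were too dim to be tested, gave r between 0.37 and 0.65. The INSR and IGFBP5 probes too dim to be tested were not used for any comparison between groups.

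The genes most like each member across the 13 animals were taken as the 2 highest Pearson r among 12599 other genes with a symbol and a value in each animal, as a description with no test. IGF1 was most like SCOC (r = 0.95) and SERINC1 (0.92), and IGF2 like TMBIM6 (0.89) and ATP5MC2 (0.88). IGF1R was most like DGKA (0.89) and SF3A2 (0.88), IGF2R like B3GALNT2 and LYRM9 (both 0.85), and INSR like HSD17B4 and PYROXD2 (both 0.90). Among binding proteins, IGFBP2 was most like GNB3 (0.92), IGFBP3 like TMEM41B (0.88) and ACSS1 (0.87), and IGFBP5 like CGREF1 (0.95) and SLCO3A1 (0.93). SPON2 was among the closest for both IGFBP4 (0.91, with HDHD5 also at 0.91) and IGFBP6 (0.90, with IL6ST at 0.89).

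The wider pathway gave no call either. Of 56 listed genes that handle, receive or pass on the signal, 47 were tested, 0 passed in either direction and 1 had an unadjusted p under 0.05. They were higher in prednisolone for 25 and lower for 22, with a median difference of 0.04, and without both animals for 29 and 18. Of 5 tested genes that handle the growth factors outside the cell, 4 were higher. PAPPA2, a protease that cuts binding proteins, had a difference of 0.54 (SE 0.26, limma adjusted p = 0.885) that became 0.32 without prednisolone 30 and 0.24 without both. STC1, an inhibitor of the related protease PAPPA, stood at 0.48 with all animals and at 0.56 without both (unadjusted p = 0.0295, limma adjusted p = 0.914). Control 18 stood at -4.04 for STC1, with the other controls between -2.85 and -2.42.

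Inside the cell, 17 PI3K and AKT genes split into 7 higher and 10 lower, 8 RAS and MAP kinase genes into 5 and 3, and 7 receptor adaptor genes into 4 and 3. PIK3R1, the regulatory subunit of PI3 kinase, had the smallest p of the list, with a difference of -0.73 (SE 0.33, unadjusted p = 0.0419, limma adjusted p = 0.885). Control 17 stood at 2.15 for this gene, and the difference was -0.43 without it and -0.27 without both. The adaptors GRB2 and SHC1 were at -0.59 and -0.32, and the kinase MAP2K1 at -0.38, while without both animals they were at -0.14, -0.08 and -0.02. SOS1, which loads RAS with GTP, was at 0.22, and the kinase MAPK3 at 0.30. Without both animals they were at 0.15 and 0.19, and without control 17 alone MAPK3 was at 0.14. The 5 genes of growth hormone input split into 3 higher and 2 lower, the 3 IGF2 mRNA binding genes into 1 and 2, and the 2 other ligands of the insulin family into 1 and 1. None of these pathway genes passed the test.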

How the data were processed

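RNA from bovine testis was measured in 7 control and 8 prednisolone animals. The authors deposited scanner files with spot intensity, made with Feature Extraction 9.5.1.1 per the file headers, and a table of processed intensity values for the same arrays, linear in scale and brought to a common level by a method not given in the sources used here; the submitters' processing notes name R 2.11.1. No spot intensity was normalized between arrays in the scanner files. For prednisolone 30 the scanner file and the deposited column differ, and which belongs to the animal was not settled.

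Control spots were left out (42990 spots remained), outlier spots masked, each array's 75th percentile subtracted from its log2 processed signals, and the spots of a probe then averaged. Probes well above background on at least 7 arrays of a group were tested. Probes were named from the files and a gene table of assembly ARS-UCD2.0; of 21475 probes, 16420 had a symbol and 325 a LOC number (a placeholder name), and of these 16745 together 3521 were named through an accession, 9913 through a gene number, 397 through the symbol itself and 2914 through a description; the names can be old. A gene was read through its tested probe with the highest mean. The comparison of groups used limma 3.58.1 under R 4.3.3 (lmFit and eBayes, two-sided, Benjamini-Hochberg over all 17411 tested probes, threshold 0.05, 95% intervals). Nothing in the labels says more of the replicates than 1 animal per array, and their number limits the precision. Correlations over animals used 100000 permutations, or exact ones below 8 animals, in Python 3.11.15 with numpy 2.4.6. The fit was tested on simulated data. Named were all 10 genes, the 4 pathway genes with the smallest p in each direction, and the 2 genes most like each gene, of which 1 is not reported here. The members and lists were chosen with earlier results of these data known. Alternatives covered scaling, background correction, filter, deposited table, slide, scan day, array weights and each animal left out.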

Additional observations from a re-analysis of the deposited data

Results flagged for a closer look

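Of 28 groups of 7 or 8 values examined (each gene and each of 4 marker list means, by group), 4 held an animal far from the rest of its group by Dixon's criterion, where chance gives about 1.4. IGFBP2 in control 17 stood at 0.55, with the nearest other control at -1.90. IGFBP4 in prednisolone 30 stood at -3.15, on an array where that probe was not well above background, with the nearest other animal at -1.76. The matrix and fibroblast list mean was 1.45 in control 17, with the nearest other control at 0.34. The Leydig list mean was -1.02 in prednisolone 32, with the nearest other animal at -0.06.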

How the results depend on the processing

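The count of the 10 genes, of the pathway genes and of all tested genes past the threshold stayed at 0 under every alternative run; with array weights 1 of 17411 probes passed, a probe not read for any gene. IGF1, IGF1R, IGF2R and IGFBP3 kept their direction under all alternatives, though their intervals without control 17 and prednisolone 30 held 0. The alternatives reuse the same animals. The share of all tested genes that kept their direction was not taken, so this is not read as particular to these genes. Some alternatives rest on few animals. Slide 1 holds controls 17 and 18 with prednisolone 25 and 26, and slide 4 holds control 23 with prednisolone 29 and 30. Each of these slides thus includes an array that stood apart. A scan day block without control 17 and prednisolone 30 has controls 18 and 23 as the only controls behind its difference. IGF2 changed sign with normexp background correction (-0.012), a slide block (-0.050), a scan day block or scan day 1 alone (both -0.12) and slide 1 alone (-0.40). INSR did with quantile scaling (-0.25), the deposited table (-0.050), slide 1 alone (-0.40) and array weights (-0.073), and ranged from -0.038 to 0.35 with one animal left out. IGFBP2 was 0.72 within slide 4 and 0.32 with a scan day block without control 17 and prednisolone 30. IGFBP4 was 0.070 without both animals, 0.085 within slide 4, 0.049 in the deposited table without both, 0.061 with quantile scaling without both and 0.66 with a scan day block without both. IGFBP5 was 0.14 within slide 4 and 0.11 with a scan day block without both. IGFBP6 was -0.012 with quantile scaling, -0.053 with median scaling, -0.31 with normexp, -0.17 in the deposited table, -0.066 with a scan day block or in scan day 1 alone, and -0.80 in slide 1 alone, and ranged from -0.12 to 0.25 with one animal left out. The cause of these changes was not tested. Settings that joined a left-out pair of animals with another choice, and correlations within scan day 1 and in the deposited table, were chosen after seeing the data.

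The median difference over all probes was 0.02 in the main scaling, -0.08 with quantile and -0.04 with median scaling. By Pearson's r, 12 pairs of genes passed with all 15 animals, 28 without prednisolone 30, 0 within controls, 3 within prednisolone, 1 within scan day 1 and 1 in the deposited table. Of the 2 pairs of the main setting these held 1, 2, 0, 1, 0 and 1. Relations with marker lists that passed numbered 15, 23, 0, 2, 0 and 1 in the same order, and held 4, 8, 0, 1, 0 and 0 of the 8. No paired analysis was possible because the groups share no animal numbers.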
